A study of Homo sapiens with 4 samples.

Results

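The DNAJ (HSP40) family was examined in the established cell line MDA-MB-231, which derives from a breast cancer without hormone receptors or HER2. The cells were treated for 24 h with DMSO, the solvent, or with 10 µM KH-3, a small molecule that blocks the binding of the RNA-binding protein HuR to its target mRNA. Each condition had 2 libraries, 4 in all. A lower dose of 5 µM was part of the study by its methods, and its libraries were not analysed here. The members are the genes with at least 1 listed protein-coding transcript and a symbol of the form DNAJA, DNAJB or DNAJC followed by a number. This gave 38 genes with 72 protein-coding transcripts, of 12120 genes with 26348 protein-coding transcripts in the deposited table. Class A had 3 members, class B had 9 and class C had 26.

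The values are the authors' mean normalized read counts, 1 per transcript, which pool libraries. Which libraries enter the mean, and whether the lower dose is among them, is not given in the sources used here. The other measures in the table are the authors' own comparison of KH-3 with DMSO, which is not used. The levels below therefore describe the family in this experiment as a whole and hold no response to KH-3. With no value per library, the depth of the libraries and the spread between replicates are unknown, and no difference between genes could be tested. The level of a gene is its mean normalized read count per kb of transcript, summed over its listed protein-coding transcripts. Markers of the line were checked as well. VIM, CD44, AXL and CAV1, which mesenchymal-like breast cancer lines express, were at 3786, 427, 2814 and 2599 per kb. ESR1, PGR and CDH1 had no row, which cannot be read as a low level, and ERBB2 and EPCAM were at 24.1 and 43.3 per kb. The reference (MANE Select) transcripts of VIM and CD44 had no row, so the values of these 2 genes come from other transcripts.

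J proteins are cochaperones. Their J domain, named after bacterial DnaJ, binds an HSP70 chaperone and stimulates its ATPase, so that HSP70 closes on the client protein that the J protein has delivered. Class A members have the domain order of DnaJ with a zinc-binding region, class B members have the J domain and the glycine- and phenylalanine-rich region without the zinc-binding one, and class C members share only the J domain and carry many other domains. In tumour cells the cytosolic members take part in the folding of kinases and steroid receptors, and the organelle members serve import, folding and degradation in the endoplasmic reticulum (ER) and mitochondria.

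HuR binds AU-rich sequence in 3′ UTRs, so the AU-rich elements of the family were read from GENCODE release 44 on hg38, 1 transcript per gene. For each gene this was the coding transcript of highest count with a 3′ UTR in release 44. The transcripts of highest count of DNAJC14 and DNAJC21 were not in that release. Transcripts with 24.3% and 36.1% of their coding reads were used in their place. The capitals mark the pentamer AUUUA, written with T. They are shown for DNAJA1, the most abundant member, whose transcript ENST00000330899.4 has 5 of them in a 3′ UTR of 1004 bases. The windows lie on the plus strand of chromosome 9.
DNAJA1, chr9:33038925-33038945: ctgctggcATTTAatgtgcag
DNAJA1, chr9:33039270-33039290: aactctgtATTTAactggcaa
DNAJA1, chr9:33039363-33039383: gcctctgcATTTAttctgttg
DNAJA1, chr9:33039410-33039430: aatatataATTTAtcctgtgg
DNAJA1, chr9:33039840-33039860: gtatcagaATTTAagcaattc

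The longer motif UAUUUAU is the core of the classical AU-rich element and is in capitals in the following windows. They come from the class A and B members with exactly 1 such heptamer. The DNAJA2 window is on the minus strand, the others are on the plus strand.
DNAJA2, chr16:46955877-46955899: gttgtagtTATTTATatttcaaa
DNAJB11, chr3:186585445-186585467: ataagcgaTATTTATtatctgca
DNAJB4, chr1:78017290-78017312: tttaaataTATTTATgttttaaa
DNAJB9, chr7:108574767-108574789: ttctgttaTATTTATgtaactta

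DNAJA1 led the family by a wide margin. It is a farnesylated cytosolic partner of HSPA8, and its gene spans 33025273 to 33039907 of chromosome 9 (hg38, plus strand). Its single listed protein-coding transcript had a mean normalized read count of 9883 over 2381 bases, which is 4151 per kb. This placed it at rank 103 of the 12120 genes and was 3.10 times the level of the next member, DNAJB1. DNAJA1 alone made up 29.3% of the summed level of the family, and 4 genes made up more than 50%: DNAJA1, DNAJB1, DNAJB11 and DNAJB6. At the other end, DNAJC17 was at 17.7 per kb and DNAJC28 at 18.5 per kb.

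**Figure D1:**
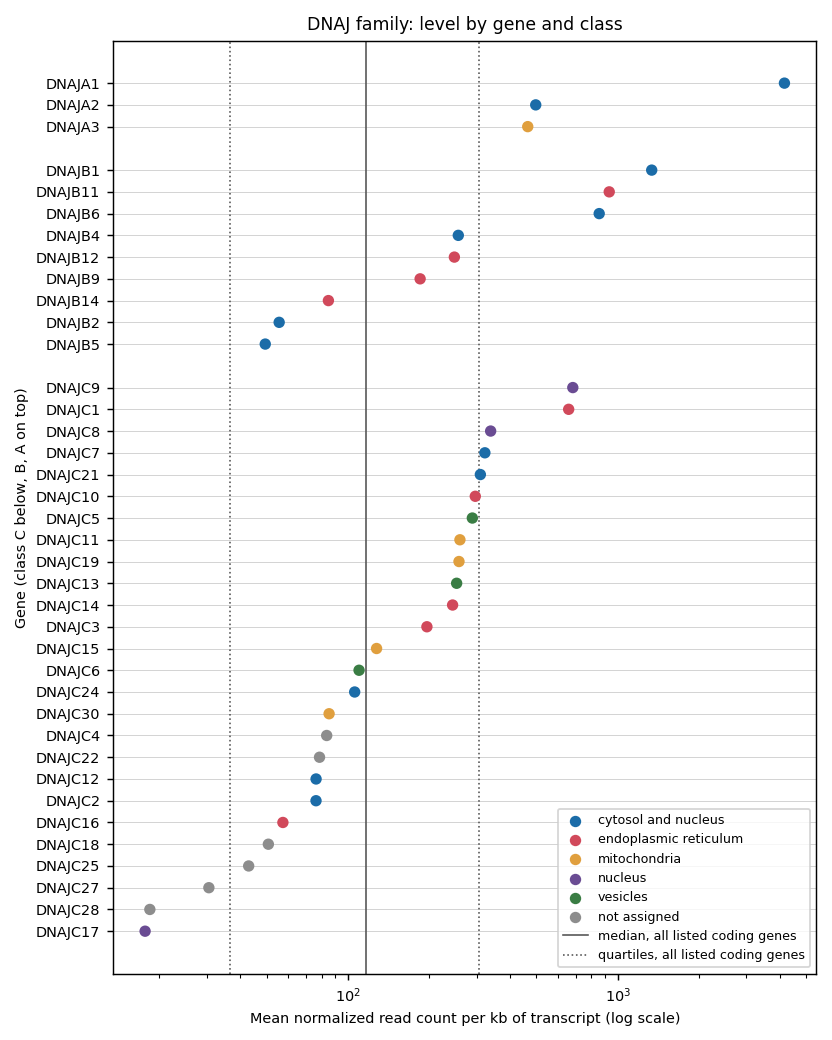
Level of each of the 38 DNAJ genes, as mean normalized read count per kb of transcript (x axis, log scale), sorted within class A, B and C (y axis) and coloured by compartment. There is 1 pooled value per gene, so no error is drawn; lines give the median of all listed coding genes (117 per kb) and their quartiles (36.6 and 306 per kb), and DNAJA1 stands apart at 4151 per kb.

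The typical member was more abundant than the typical gene of the table. The median of the 38 members was 221 per kb and that of all genes 117 per kb, and 22 members (57.9%) lay above the latter. In the summed level the family did not stand out, with 0.293% of the total from 0.314% of the genes. The top 25% of all genes held 11 members (28.9%), and the bottom 25% held 3. By the RefSeq annotation of GRCh38.p14 there are 42 coding genes with such a symbol. DNAJA4, DNAJB7, DNAJB8 and DNAJB13 had no row. The lowest mean normalized read count in the table is 7.34. A missing row cannot be read as a low level, because the reference (MANE Select) transcripts of HSPA8, VIM and CD44 also had no row, and why is not known.

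The classes differed in their typical level. The median was 497 per kb in class A, 248 in class B and 119 in class C, the last being close to the median of all genes. All 3 class A members were in the top 25% of all genes, with 3 of 9 in class B and 5 of 26 in class C. The class C count includes DNAJC7 and DNAJC8, which passed 306 per kb only with short transcripts of 449 and 483 bases. It also includes DNAJC21, which was just above that value at 310 per kb and lacked its MANE Select transcript. The ranges overlapped, since the highest members of class B and C were above DNAJA2 and DNAJA3. In the summed level class A had 36.0%, class B 28.2% and class C 35.8%. The near tie of A and C rested on DNAJA1. Without that gene class A fell to 9.58% and class C was at 50.5%, and class C also led when reads were not divided by length (43.4% against 32.1%).

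In class A, DNAJA2 and DNAJA3 were close to each other. DNAJA2, a farnesylated cytosolic relative of DNAJA1, spans 46955362 to 46973674 of chromosome 16 (minus strand) and was at 497 per kb. DNAJA3, the mitochondrial member, spans 4425805 to 4456775 of the same chromosome (plus strand) and was at 464 per kb. DNAJA1 was 8.94 times the level of DNAJA3.

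Class B spanned a 27.0-fold range. DNAJB1, the heat-inducible cytosolic member, spans 14514769 to 14560391 of chromosome 19 (minus strand) and reached 1338 per kb (rank 536). DNAJB11, which serves the ER HSP70 HSPA5, was at 931 per kb. DNAJB6, known for keeping aggregation-prone proteins soluble, was at 854 per kb. After these 3 the levels dropped to 257 per kb for DNAJB4 and 248 for DNAJB12. DNAJB4 and DNAJB5 are the closest relatives of DNAJB1, and DNAJB5 was the lowest of the class at 49.5 per kb. The MANE Select transcript of DNAJB5 had no row, so this level and the 27.0-fold range of the class are uncertain. DNAJB2, which binds ubiquitinated clients and is best known from neurons, was the next lowest at 55.7 per kb.

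Class C spanned a 38.4-fold range, the widest of the 3 classes. DNAJC9, a nuclear histone H3-H4 cochaperone that works during DNA replication, was its highest member at 682 per kb. DNAJC1, an ER membrane protein that faces the ribosome, followed at 659 per kb. DNAJC8, a spliceosome-associated nuclear protein, was next at 338 per kb, of which 115 came from a transcript of 483 bases. The lowest were DNAJC17, a splicing-related nuclear protein, and DNAJC28. Among those that work at the ribosome, DNAJC21, a factor of large subunit maturation, was at 310.0 per kb and DNAJC2, the partner of HSPA14 at the nascent chain, at 76.3 per kb. HSPA14 itself was at 364 per kb. DNAJC7, a cochaperone with tetratricopeptide repeats, was at 322 per kb, of which 239 came from a single transcript of 449 bases, DNAJC24, which serves diphthamide synthesis, at 106 per kb, and DNAJC12, the cochaperone of the aromatic amino acid hydroxylases, at 76.3 per kb.

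By compartment, 12 members were assigned to cytosol and nucleus, 9 to the ER, 5 to mitochondria, 3 to the nucleus alone, 3 to vesicles, and 6 were not assigned. The medians of the first 5 groups were 283, 245, 258, 338 and 253 per kb. The 6 without an assignment, all of class C, had a median of 46.9 per kb and a highest value of 83.5 per kb, and none of them lay above the median of all genes. They were, from high to low, DNAJC4, DNAJC22 (78.6 per kb), DNAJC18 (50.8 per kb), DNAJC25 (42.9 per kb), DNAJC27 (30.6 per kb) and DNAJC28. The groups differed more in their sums. Cytosol and nucleus held 57.0% of the summed level, the ER 20.5%, mitochondria 8.43%, the nucleus 7.32% and vesicles 4.60%. These sums depend on the number of members, and the first also on DNAJA1, which alone gave 29.3% of the family's summed level. Without DNAJA1 the ER held 28.9% and mitochondria 11.9%.

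**Figure D2:**
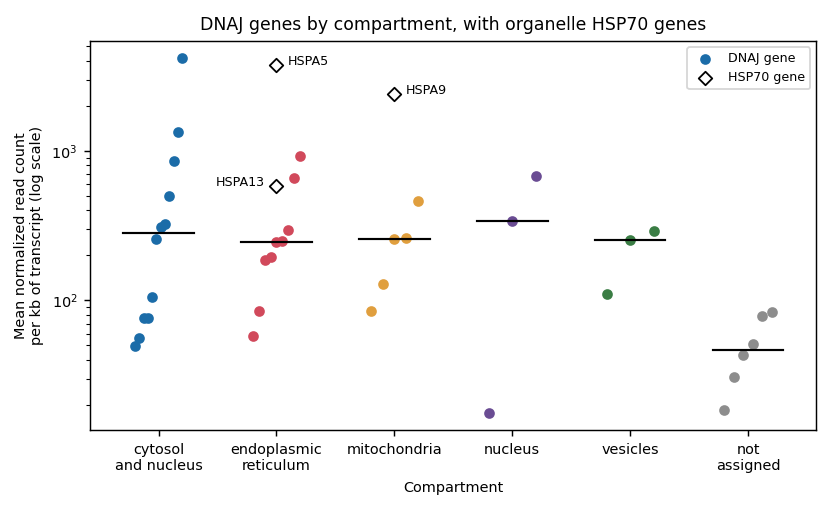
DNAJ genes by compartment (x axis) against mean normalized read count per kb of transcript (y axis, log scale); circles are genes, black lines are medians over genes, and diamonds are the HSP70 genes of the ER and of mitochondria. HSPA5 at 3745 and HSPA9 at 2414 per kb lie above every DNAJ gene of their organelle, while HSPA13 at 586 per kb lies below DNAJB11 and DNAJC1.

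In the ER, soluble and membrane-bound members were both present. DNAJB11 gave 32.1% of the ER sum. DNAJC10, a disulfide reductase, was at 297 per kb. DNAJC3, an inhibitor of the eIF2α kinases that also folds proteins in the lumen, was at 196 per kb, and DNAJB9, a target of the unfolded protein response, was at 185 per kb. The membrane proteins DNAJB12 and DNAJB14, which act in ER-associated degradation, differed, with 248 and 84.8 per kb. DNAJC14 was at 245 and DNAJC16 at 57.5 per kb. HSPA5, the main HSP70 of the lumen, was at 3745 per kb. With HSPA13 at 586 per kb the ER HSP70 genes came to 1.49 times the sum of the 9 DNAJ genes. That sum counts every DNAJ gene assigned to the ER, whichever side of the membrane its J domain faces. J proteins outside the rule are not in it. The ratio therefore does not compare the HSP70 genes with their own partners alone. The ER exchange factors HYOU1 and SIL1 were at 935 and 238 per kb.

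In mitochondria, DNAJA3 gave 38.8% of the sum of the 5 members. DNAJC19 and DNAJC15 belong to the import motor of the inner membrane and were at 258 and 128 per kb. For DNAJC19, 101 per kb came from the MANE Select transcript, and 105 and 52.0 from transcripts of 610 and 769 bases. DNAJC11, which is tied to the cristae-organising complex, was at 260 per kb, and DNAJC30 was the lowest of the 5 assigned members at 85.3 per kb. HSPA9, the HSP70 of the matrix, was at 2414 per kb, 2.02 times the sum of the 5 members. That sum counts every DNAJ gene assigned to mitochondria, whether or not it works with HSPA9. The exchange factors of HSPA9, GRPEL1 and GRPEL2, were at 261 and 132 per kb. Among the vesicle members, DNAJC5, a palmitoylated vesicle protein, was at 289 per kb, DNAJC13, which acts in endosomal sorting, at 253 per kb, and DNAJC6, which uncoats clathrin, at 110 per kb.

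The same ratio could not be given for the cytosol. The MANE Select transcript of HSPA8, the constitutive HSP70, had no row, and the 3 listed coding transcripts of the gene gave 63.6 per kb. HSPA1B was at 2935 and its near-identical copy HSPA1A at 97.6 per kb, a split that depends on how shared reads were assigned. Of the cytosolic exchange factors HSPA4 was at 2464, BAG3 at 596 and HSPH1 at 577 per kb. All 13 exchange factors of the list had a row, with a median of 261 per kb, and so had 11 of 12 HSP70 genes. Of the J proteins outside the rule, SEC63, GAK and HSCB were at 181, 183 and 60.2 per kb, and DNAJC5B and DNAJC5G had no row.

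The MANE Select transcript was listed for 34 of the 38 members, and for 84.7% of all genes. It had no row for DNAJB5, DNAJC4, DNAJC14 and DNAJC21. In 31 members it was also the transcript with the highest mean normalized read count. For DNAJC10 it held only 9.95% of the coding reads, for DNAJB12 10.6% and for DNAJC7 21.2%. The value of each transcript rests on how the authors' estimation divided reads between overlapping transcripts. DNAJC7 shows its weight. A transcript of 449 bases with a mean normalized read count of 107 was its most abundant one, while the MANE transcript of 2022 bases had 55.6, or 27.5 per kb.

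Of the members, 17 had a single listed coding transcript and 21 had several, at most 5 in DNAJB12. The matching split of all genes was not computed. The main transcript held the lowest share of the coding reads in DNAJA3, with 36.6%. Its 3 transcripts had mean normalized read counts of 434, 412 and 340, so they were nearly even. DNAJC7 followed with 40.9%, DNAJC28 with 41.7%, DNAJB12 with 51.9% and DNAJC4 with 53.9%. The share of DNAJC28 rests on counts of 12.1, 8.64 and 8.30, near the lowest listed count of 7.34.

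Transcripts of other types from the same genes were frequent. Of the 38 members, 24 (63.2%) had at least 1 transcript of a non-coding type listed, against 53.0% of all genes. These were 20 transcripts annotated as subject to nonsense-mediated decay (NMD), 23 with a retained intron and 14 processed transcripts. Retained-intron transcripts carried a lower share of the summed mean normalized read count in the family (3.57%) than in all coding genes (5.46%). Processed transcripts carried a higher share in the family, and so did NMD transcripts. For processed transcripts, 1199.6 of the family's summed mean normalized read count of 2285 came from a single transcript of DNAJC8. The family's share without that transcript was not computed, so the higher share of processed transcripts may rest on it alone. NMD transcripts carried 11.5% of the summed mean normalized read count of the family and 3.33% of that of all coding genes. DNAJA2 gave a large part of it, and without DNAJA2 the family's share was 7.59%. In that gene ENST00000563158.1, an NMD transcript of 1825 bases, had a mean normalized read count of 2148, above the 1245 of the main coding transcript. DNAJC7, DNAJC25, DNAJC5 and DNAJC10 also had large NMD shares, of 57.7%, 55.9%, 41.9% and 29.0% of all reads of the gene.

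**Figure D3:**
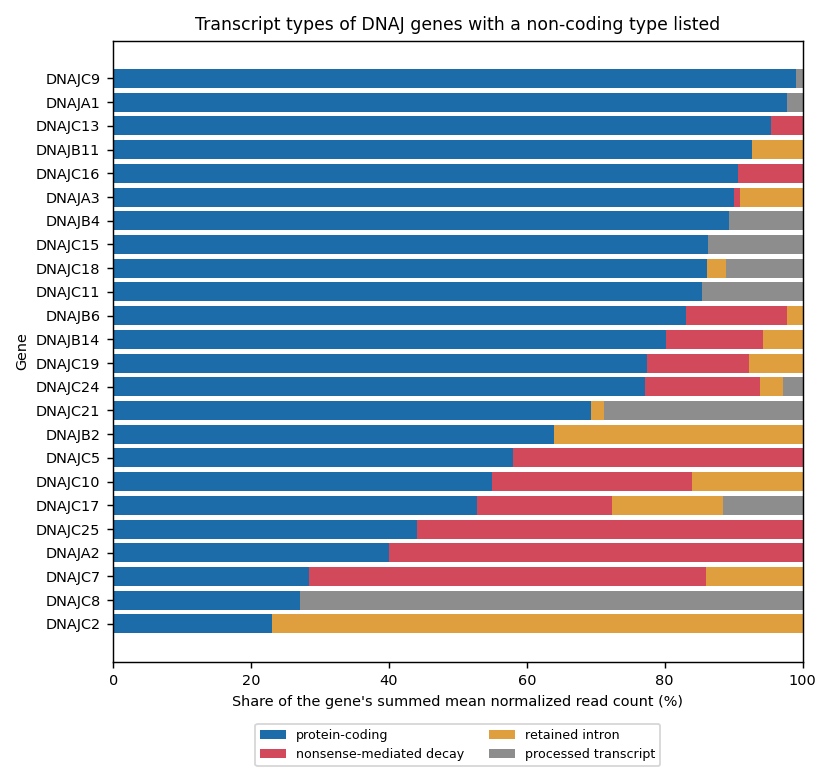
Share of each transcript type in the summed mean normalized read count of the gene (x axis, percent) for the 24 DNAJ genes with a non-coding type listed (y axis). Bars run from 0 to 100; in DNAJC2, DNAJC8, DNAJC7, DNAJA2 and DNAJC25 the coding types hold less than 50%.

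In 5 members less than 50% of the reads were in coding transcripts, a count for which no matching share of all genes was computed. For DNAJC2 they were 23.1%, with 76.9% in 4 retained-intron transcripts of mean normalized read counts between 29.5 and 201. For DNAJC8 they were 27.1%, since 1 processed transcript of 1600 bases had a mean normalized read count of 1199.6 against 393 for the main coding transcript. With all types counted, the median of class A moved from 497 to 1674 per kb and that of class C from 119 to 221 per kb, while that of class B stayed at 248 per kb, and DNAJA2 took the place of DNAJB1 as the member next to DNAJA1. The readthrough gene DNAJC25-GNG10 was listed with 612 reads and shares sequence with DNAJC25, whose coding transcript had 97.4. DNAJC9-AS1 and DNAJC3-AS1 were listed with 29.0 and 22.0. Whether strand was used in the counting is not given in the sources used here.

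AUUUA was frequent in the family's 3′ UTRs, which were also slightly longer than usual. It was present in 32 of the 38 members (84.2%) and in 72.7% of 11904 coding genes with a 3′ UTR in release 44. The median 3′ UTR was 1501 bases in the family and 1254 bases over all genes. Per kb of 3′ UTR the members had 2.66 pentamers, with 2.32 over all genes, and 2.38 in the 30 members whose transcript lengths in the deposited table and release 44 were within 5%. The median AU content of the 38 was 62.2%, with 58.3% over all genes. Class A had AUUUA in 3 of 3 members, class B in 7 of 9 and class C in 22 of 26. The heptamer UAUUUAU, which contains AUUUA, was in 13 members (34.2%) and in 35.1% of all genes, and in 8 of the 30 members of like length. The values over all genes are not limited to transcripts of like length. The counts and density of these 30 members therefore have no matching background. Only the transcribed strand was searched, and overlapping matches were counted. A match describes the sequence and is not a measured HuR site.

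**Figure D4:**
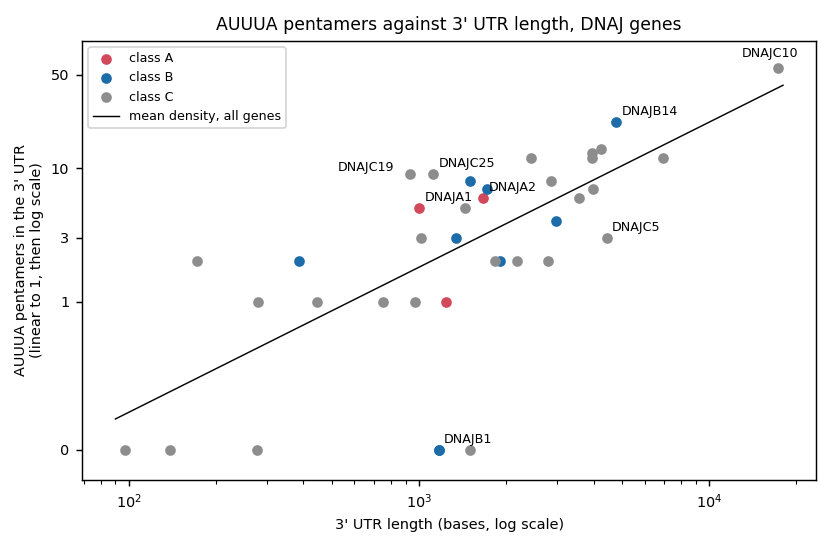
Number of AUUUA pentamers (y axis, linear to 1 and then log scale) against 3′ UTR length in bases (x axis, log scale) for the 38 DNAJ genes, coloured by class. The line is the mean density over all genes, 2.32 per kb; DNAJB1 has 0 pentamers in 1171 bases, while DNAJC19 has 9 in 931.

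The 2 most abundant members differed in this feature. DNAJA1 had 5 pentamers in 1004 bases, or 4.98 per kb, as printed above. DNAJB1 had none in 1171 bases, and neither had DNAJB5, DNAJC1, DNAJC4, DNAJC7 and DNAJC11. For DNAJC7 the 3′ UTR searched was that of its 449-base transcript. The density was highest in DNAJC28, at 11.6 per kb from 2 pentamers in 172 bases, followed by DNAJC19 with 9.67 and DNAJC25 with 8.01 per kb. The DNAJC28 transcript has 1354 bases as deposited and 1485 in release 44, so it is outside the members of like length. DNAJB14 had 22 pentamers and 4 heptamers in 4780 bases. DNAJC10 had the highest count, 56, in a 3′ UTR of 17332 bases in release 44, but its deposited transcript is only 5783 bases long in all. It is not among the 30 members of like length, of which 24 had AUUUA.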

How the data were processed

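mRNA libraries of MDA-MB-231 cells (2 with DMSO, 2 with 10 µM KH-3) were sequenced on an Illumina HiSeq system. The authors mapped reads to GENCODE release 24 transcripts with STAR, estimated reads per transcript with eXpress and normalized with DESeq2; versions are not given in the sources used here. The deposited mean normalized read count is a signal pooled over libraries. The fold change, p-value and q-value columns hold the authors' comparison and were not used. There is no value per library, so depth and counting precision are unknown.

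Levels were computed as the mean normalized read count per kb, summed over protein-coding transcripts of a gene, with no filter beyond the table's own. Ranks are among 12120 genes. Compartments, partner genes and markers were written from general knowledge; members and lists were chosen with earlier results of these data known. Named are all class A and organelle members, the extremes of each class and of the family, partners, and genes with the most divided coding transcripts; others named were chosen after their values were seen. 1 partner gene is not reported here. Of the 72 member transcripts, 69 were found in GENCODE release 44 by ID without version, 31 with the same length. All 38 printed or tabulated sequence windows equalled hg38. The level computation was tested on simulated data. Tables were computed with pandas 2.3.3 on numpy 2.4.6 and Python 3.11.15, and figures drawn with matplotlib 3.10.9.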

Additional observations from a re-analysis of the deposited data

How the results depend on the processing

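No paired analysis was possible because the table holds 1 pooled value per transcript; for the same reason no replicate could be left out. The median level stayed in the order class A, B, C in all 7 alternatives, and DNAJA1 stayed the highest member in the 6 that kept it. The shares in the summed level moved, given here for class A, B and C, then ER and mitochondria in that order. With only the transcript of highest count they were 36.9%, 28.4%, 34.7%, 20.8% and 5.57%, and the medians 399, 185 and 103 per kb. With all types they were 34.7%, 22.1%, 43.2%, 18.0% and 7.78%, with medians of 1674 (A) and 221 (C). Per kb of coding length they were 29.8%, 26.6%, 43.5%, 17.0% and 13.4%, the medians 1468, 759 and 302, and 17 members lay in the top 25% of all genes, against 11 as reported. In the other alternatives this number lay between 8 and 15. Without division by length they were 32.1%, 24.5%, 43.4%, 22.9% and 8.91%, with medians of 1430.4, 767 and 338 reads. With transcripts of 50 or more reads they were 36.8%, 28.6%, 34.6%, 20.6% and 8.09%, with medians of 232 (B) and 162 (C). Chosen after seeing the data, MANE Select transcripts alone gave 40.3%, 30.0%, 29.7%, 18.2% and 6.08% with medians of 399, 221 and 81.3, and leaving out DNAJA1 gave 9.58%, 39.9%, 50.5%, 28.9% and 11.9% with a class A median of 481. The heptamer UAUUUAU was in 13 members in place of 32 with AUUUA. Class C thus led class A in 4 of the 7 alternatives. No error could be set beside these shifts, since the depth is unknown.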

Other observations

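Among the HSP70 genes not yet given, HSPA12A was at 29.5, HSPA6 at 23.2, HSPA1L at 15.0 and HSPA2 at 77.5 per kb, all below the median of all genes, and HSPA12B had no row. Of the exchange factors, BAG1, HSPA4L and HSPBP1 were at 349, 289 and 259 per kb, and BAG5, BAG4 and BAG2 at 175, 159 and 156 per kb.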
